A study of Macaca mulatta with 20 samples.

Results

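The steroid hormone synthesis genes examined here were STAR, CYP11A1, CYP17A1, HSD3B2, HSD17B3, CYP19A1, LHCGR, INSL3, NR5A1 and FDX1. They were read from every probe set, the group of short probes an array uses for one transcript, whose only gene symbol in the array annotation was one of these 10 genes. This gave 9 probe sets of 6 genes among 52766 probe sets on the Rhesus Macaque Genome Array, and 21 probe sets of 10 genes among 54613 on the human array HGU133plus2.0, control probe sets not counted. CYP11A1, HSD17B3, LHCGR and INSL3 were read on human arrays only. A further rhesus probe set carried the symbols of both HSD3B2 and LOC713156 and was left out, with levels between 2.29 and 2.50 on all 10 rhesus arrays.

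Testosterone is made in the Leydig cells, which lie between the seminiferous tubules of the testis. Luteinizing hormone acts on these cells through its receptor, cholesterol is carried into the mitochondria, its side chain is cut off there with electrons passed on by ferredoxin, and enzymes of the endoplasmic reticulum turn the product into androgens, which aromatase can convert to estrogens. Nuclear receptors, among them SF-1, switch on many genes of this path in both the testis and the adrenal gland.

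Rhesus macaque (Macaca mulatta) total RNA came from testis, cerebral cortex, immortalized fibroblasts, pancreas and thymus, and no source was treated or altered otherwise as far as the labels say. The fibroblasts were a cultured cell line and the other 4 sources were tissues. How many animals gave each RNA is not given in the sources used here. Aliquots of each RNA were hybridized to 2 rhesus and 2 human arrays, 20 arrays in all, labelled as technical replicates 1 and 2 on rhesus arrays and 3 and 4 on human arrays. The tests below therefore measured the spread between arrays of one RNA preparation and not between animals. Values were log2 expression levels, running between 0.76 and 15.9 on rhesus arrays and between 0.73 and 15.9 on human arrays. Probe sets for bacterial RNA, which no source makes, averaged between 1.99 and 3.12 on rhesus arrays (42 probe sets) and between 2.14 and 3.12 on human arrays (27 probe sets), taken here as the range of an unmeasured target. The 2 pancreas arrays of a type differed most, with a within-pair SD over all probe sets of 0.281 on rhesus and 0.218 on human arrays, against 0.137 to 0.170 and 0.150 to 0.166 for the other sources. Human probes can mismatch rhesus RNA, so a low level on human arrays was not read as absence of a transcript. In RNA of a whole tissue, fewer cells of a type and less RNA per cell cannot be told apart.

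The labelled testis carried RNA of its supporting cells. All 8 measured markers of Sertoli cells, the nurse cells of the tubules, were higher in testis on rhesus arrays and 9 of 10 were higher on human arrays. Their mean level was 8.35 and 8.37 on the 2 rhesus testis arrays, against 2.47 to 3.89 on the other 8 rhesus arrays, and AMH, the anti-Müllerian hormone, reached a mean of 11.6 in testis, against 2.10 in the other sources. Markers of germ cells were fewer: 4 of 7 were higher in testis on rhesus and 4 of 12 on human arrays. Among those not called was PRM1, a protamine of late spermatids, with mean levels in testis of 3.21 on rhesus and 2.43 on human arrays. ZPBP, SYCP1 and SYCP3 were called higher on both array types. ZPBP averaged 7.58 in testis, against 3.03 in the other sources, on rhesus arrays and 7.89, against 2.85, on human arrays. DAZL was called on rhesus arrays (6.91, against 3.46) and not on human arrays (2.87, against 2.89). Markers of the adrenal cortex, another organ that uses this pathway, were not called in testis (0 of 5 on rhesus and 0 of 4 on human arrays by limma, and 1 higher and 3 lower on rhesus and 0 on human arrays at an unadjusted p below 0.05). Their mean level was 2.86 and 3.01 on the rhesus testis arrays, against 2.85 to 3.18 on the other rhesus arrays, and 2.55 and 2.71 on the human testis arrays, against 2.54 to 2.89 on the other human arrays. CYP11B1 and MC2R, an adrenal steroid hydroxylase and the corticotropin receptor, stayed at or below 2.59 on average in testis. MRAP, a protein that helps this receptor reach the cell surface, averaged 3.25 in testis, against 2.61 in the other sources on rhesus arrays, a difference of 0.64 under the minimum for a call (limma adjusted p = 0.0387). CYP11B2, aldosterone synthase, averaged 4.43 in testis, against 4.85 in the other sources, on rhesus arrays. All 4 markers each of cerebral cortex and pancreas were lower in testis on both array types. Thymus markers were mixed against the mean of the other 4 sources, thymus among them. On rhesus arrays DNTT (7.88 in testis, against 5.77 in the other sources) and CD1B (8.45, against 6.16) were higher in testis and PTCRA was lower. On human arrays 1 of the 4, RAG2, was lower and none was higher (1 at an unadjusted p below 0.05 by limma). The mean of the 4 markers lay below thymus, at 5.996 and 6.020 in testis, against 12.06 and 11.99 in thymus, on rhesus arrays. On human arrays it was 4.35 and 4.29, against 8.87 and 8.85. Of 3 fibroblast markers, COL1A1 was higher and DKK1 lower in testis on both array types. The mean of the 3 was 7.01 and 6.92 in testis, against 12.8 and 12.7 in fibroblasts, on rhesus arrays. On human arrays it was 6.82 and 6.85, against 11.6 and 11.3. The part of these cell types in the results below was not tested.

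Testis stood above the other sources for CYP17A1 and STAR on both array types, for HSD3B2 on rhesus arrays, and for INSL3 and CYP11A1 on human arrays. With a call set at an adjusted p below 0.05 (limma, all probe sets of an array type) and a difference of at least 1 on the log2 scale from the mean of the other 4 sources, 3 of the 9 rhesus probe sets were higher in testis, 1 each for STAR, CYP17A1 and HSD3B2, and none was lower. Of all rhesus probe sets, 12.8% were called higher and 7.69% lower. The CYP17A1 probe set MmuSTS.4193.1.S1_at had been listed with its pattern known and is a description, so 2 of the other 8 rhesus members stand against the 12.8%. Of the 21 human probe sets, 6 were called higher and none lower, against 6.05% and 3.59% of all human probe sets. The 6 were 3 for INSL3 and 1 each for CYP17A1, STAR and CYP11A1, so they came from 4 of the 10 genes. CYP17A1 stays in this human count, though the gene had been listed with its rhesus pattern known. The median testis difference was 0.13 over the 9 rhesus members, against -0.10 over all rhesus probe sets, and -0.05 over the 21 human members, against -0.06 over all human probe sets. At an unadjusted p below 0.05, limma gave 4 rhesus and 9 human members as higher, and 3 rhesus and 4 human members as lower. Shares of all probe sets at that p were not counted. At an adjusted p below 0.05 with no minimum difference, 20417 of 52766 rhesus and 15236 of 54613 human probe sets were lower. Ordinary analysis of variance with the minimum difference called 0 members lower on either type. The 9 called probe sets averaged between 2.61 and 2.76 (rhesus) and between 2.09 and 2.59 (human) in the other 4 sources, none above the range of the bacterial probe sets, so the size of each difference depends on that floor.

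**Figure D1:**
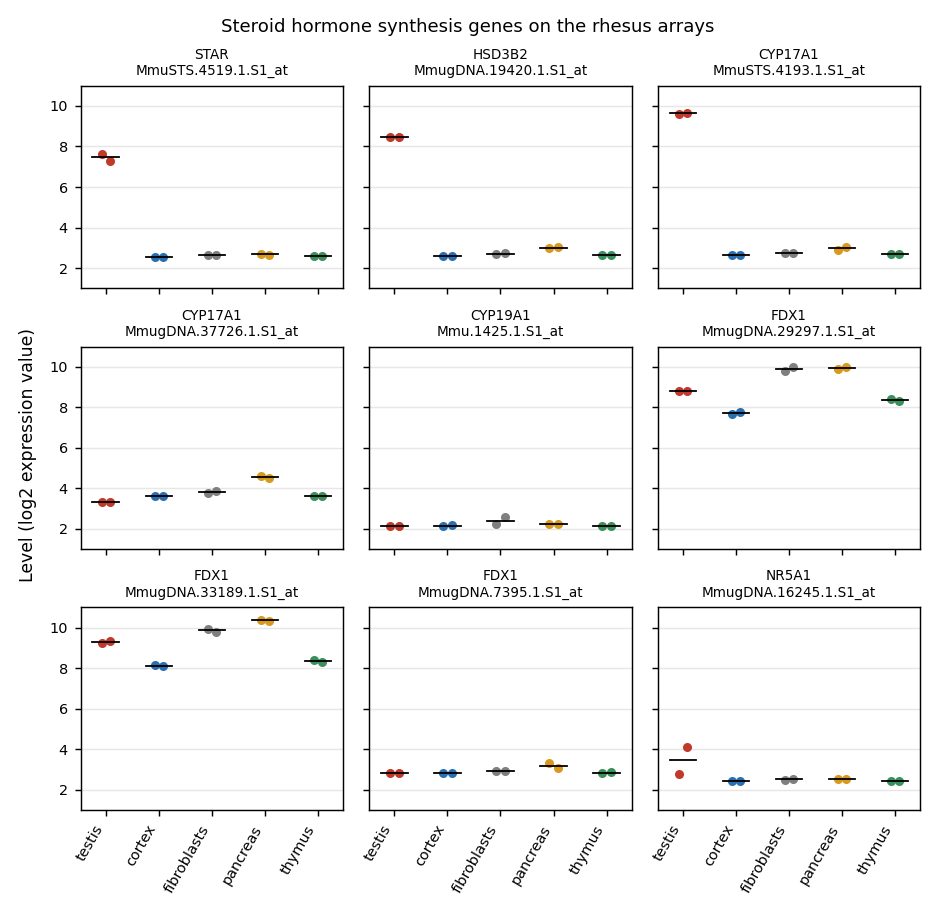
Levels of the 9 rhesus probe sets on each of the 10 rhesus arrays. The y axis is the log2 expression value, points are single arrays, bars are the mean of the 2 arrays of a source, and testis stands at the left. STAR, HSD3B2 and one CYP17A1 probe set lie between 7.29 and 9.67 in testis and at 3.04 or below elsewhere, while 2 FDX1 probe sets lie at 7.65 or above in every source.

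STAR carries cholesterol to the inner mitochondrial membrane, the step that limits the rate of steroid synthesis. Its rhesus probe set MmuSTS.4519.1.S1_at read 7.63 and 7.29 in testis, against 2.56 and 2.54 in cerebral cortex, 2.63 and 2.63 in fibroblasts, 2.71 and 2.65 in pancreas, and 2.57 and 2.59 in thymus. The 2 testis arrays stood far above all 8 others, which did not leave the floor. The testis difference was 4.84 (SE 0.0802, 95% interval 4.65 to 5.04, limma adjusted p = 1.20e-07). The human probe set 204548_at read 4.52 and 5.19 in testis, against 2.50 to 2.59 on the other 8 human arrays. The groups did not overlap there either, and the difference of 2.32 (SE 0.155, limma adjusted p = 0.000122) was called.

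CYP11A1, the enzyme that cuts the cholesterol side chain and so opens the pathway, was read by 1 human probe set, 204309_at. It stood at 4.20 and 3.61 in testis, against 2.07 and 2.08 in cerebral cortex, 2.08 and 2.10 in fibroblasts, 2.12 and 2.12 in pancreas, and 2.07 and 2.07 in thymus. The 2 testis arrays were less alike than the pairs of the other sources, and both lay above every other array. The difference of 1.82 (SE 0.136, 95% interval 1.48 to 2.15, limma adjusted p = 0.000201) passed the test.

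FDX1 encodes ferredoxin, the iron-sulfur protein that passes electrons to the mitochondrial steroid enzymes and is present in many tissues. On 2 rhesus probe sets and 1 human probe set its level was well above the floor in every source. The rhesus probe set MmugDNA.29297.1.S1_at read 8.80 and 8.81 in testis, against 7.65 and 7.75 in cerebral cortex, 9.81 and 9.98 in fibroblasts, 9.91 and 10.01 in pancreas, and 8.42 and 8.32 in thymus. Testis thus lay in the middle of the order, above thymus and cortex and below fibroblasts and pancreas. Its difference from the mean of the others was -0.18 (SE 0.0591, limma adjusted p = 0.0386), under the minimum for a call, and without pancreas in the mean it was 0.15 (limma adjusted p = 0.0817). A second rhesus probe set, MmugDNA.33189.1.S1_at, read 9.25 and 9.35 in testis, against 8.16 and 8.09 in cerebral cortex, 9.95 and 9.80 in fibroblasts, 10.4 and 10.3 in pancreas, and 8.40 and 8.31 in thymus. It gave the same order of sources and a testis difference of 0.13 (SE 0.0530, limma adjusted p = 0.0781). Without pancreas in the mean, the testis difference of this second probe set was 0.52, also under the minimum for a call.

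Neighbouring sources were then tested in the order of FDX1 levels, and the share of all rhesus probe sets passing the same pair in either direction is given beside each test. On MmugDNA.29297.1.S1_at, pancreas and fibroblasts did not differ beyond their spread (0.07, limma adjusted p = 0.499, 47.5% passing). Testis stood 1.09 below fibroblasts (limma adjusted p = 4.13e-05, 54.5% passing) and 0.44 above thymus (adjusted p = 0.00397, 38.4% passing), and thymus stood 0.67 above cortex (adjusted p = 0.000347, 43.2% passing). On MmugDNA.33189.1.S1_at all 4 neighbouring pairs passed, pancreas over fibroblasts included, at 0.48 (limma adjusted p = 0.00130). Set against the mean of the other sources, FDX1 was called higher in pancreas on both probe sets (1.27 and 1.44, 6.97% of all rhesus probe sets) and in fibroblasts on the first (1.19, 11.2% of all). It was called lower in cerebral cortex on both (-1.56 and -1.35, 14.4% of all) and in thymus on the second (-1.06, 12% of all).

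The human FDX1 probe set 203647_s_at read 7.14 and 7.15 in testis, against 6.58 and 6.43 in cerebral cortex, 8.26 and 8.21 in fibroblasts, 7.42 and 8.32 in pancreas, and 7.06 and 6.84 in thymus. Fibroblasts had the highest mean and cortex the lowest, and the 2 pancreas arrays were far apart. FDX1 was called higher in fibroblasts (1.11, limma adjusted p = 0.0111, 7.12% of all human probe sets) and lower in cortex (-1.04, adjusted p = 0.0138, 6.47% of all). Not 1 of the 4 neighbouring pairs passed on this probe set at the adjusted p, and the testis difference was -0.24 (95% interval -0.77 to 0.29). The rhesus FDX1 probe set MmugDNA.7395.1.S1_at stayed at 3.30 or below, 203646_at stayed between 3.28 and 4.09, and 239161_at stayed between 2.54 and 2.64, so these 3 did not show the level seen with the others.

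CYP17A1, which makes the step to androgens with its hydroxylase and lyase activities, gave the widest testis difference on rhesus arrays among the members. Its probe set MmuSTS.4193.1.S1_at read 9.60 and 9.67 in testis, against 2.65 and 2.65 in cerebral cortex, 2.75 and 2.72 in fibroblasts, 2.90 and 3.04 in pancreas, and 2.71 and 2.67 in thymus. Testis stood apart from all 8 other arrays by a difference of 6.88 (SE 0.0435, 95% interval 6.77 to 6.98), given as a description, since the gene had been listed with this pattern known. The second rhesus probe set of the gene, MmugDNA.37726.1.S1_at, went the other way. It read 3.30 and 3.34 in testis, against 3.61 to 3.87 in cortex, fibroblasts and thymus and 4.59 and 4.52 in pancreas. Testis was lowest and pancreas highest on it, with a testis difference of -0.58 (SE 0.0381, limma adjusted p = 3.32e-05), which passed the test but not the minimum difference.

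The same split appeared on human arrays. CYP17A1 probe set 205502_at read 8.06 and 7.97 in testis, against 2.18 and 2.21 in cerebral cortex, 2.21 and 2.23 in fibroblasts, 2.24 and 2.28 in pancreas, and 2.19 and 2.18 in thymus. Testis stood apart from all other arrays, with a difference of 5.80 (SE 0.0271, 95% interval 5.74 to 5.87, limma adjusted p = 4.38e-09). Probe set 1562573_at read 3.60 and 3.67 in testis, against 3.65 and 3.62 in cerebral cortex, 3.71 and 3.72 in fibroblasts, 4.29 and 4.13 in pancreas, and 3.69 and 3.68 in thymus. Here the testis arrays overlapped those of cortex and only pancreas stood above the rest, and the testis difference was -0.17 (SE 0.0428, limma adjusted p = 0.0227), under the minimum. CYP17A1 therefore separated testis on both array types, with 1 of its 2 probe sets on each.

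HSD3B2 encodes a 3-beta-hydroxysteroid dehydrogenase, which turns pregnenolone and its products into the steroids with the double bond of active hormones. The rhesus probe set MmugDNA.19420.1.S1_at read 8.48 and 8.47 in testis, against 2.59 and 2.58 in cerebral cortex, 2.71 and 2.72 in fibroblasts, 2.99 and 3.03 in pancreas, and 2.63 and 2.63 in thymus. The testis arrays were nearly equal and stood above the mean of the rest by 5.74 (SE 0.0227, 95% interval 5.68 to 5.79, limma adjusted p = 1.21e-09). The human probe set 206294_at read 3.34 and 2.66 in testis, against 2.22 to 2.27 on the other 8 human arrays. The testis arrays again lay above all others, but the difference of 0.76 (SE 0.156, limma adjusted p = 0.0124) was not called. It was 1.10 without testis replicate 4, the lower testis array, and smaller than 0.76 without testis replicate 3. HSD3B1, a close relative whose sequence is nearly the same, was read on human arrays, with a mean of 2.46 in testis, against 2.52 in the other sources.

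HSD17B3, the enzyme that reduces androstenedione to testosterone in the testis, was read by 1 human probe set, 206985_at. It stood at 3.15 and 2.65 in testis, against 1.98 to 2.13 on the other 8 human arrays. Both testis arrays lay above the rest at a low level, and the difference of 0.84 (SE 0.118, limma adjusted p = 0.00295) was under the minimum. It was 1.10 without testis replicate 4, the lower testis array, and smaller than 0.84 without testis replicate 3.

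CYP19A1, aromatase, which converts androgens to estrogens, was not called in testis by any of its 8 probe sets. Its rhesus probe set read 2.14 and 2.15 in testis, against 2.14 to 2.58 on the other 8 arrays, a difference of -0.09 (95% interval -0.30 to 0.11). The 7 human probe sets ran between 2.30 and 4.58 over all sources, and their testis differences lay between -0.22 and -0.05. The highest value belonged to one fibroblast array: 240705_at read 3.06 and 4.58 in the 2 fibroblast arrays, against 3.03 to 3.13 on the other 8 human arrays. Fibroblast replicate 4 exceeded replicate 3 on 6 of the 7 human probe sets.

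INSL3, a peptide hormone that Leydig cells secrete and that guides the descent of the testis, gave the widest testis difference of all members on human arrays. Probe set 214572_s_at read 9.78 and 9.84 in testis, against 2.55 to 2.66 on the other 8 human arrays, a difference of 7.22 (SE 0.0189, 95% interval 7.17 to 7.26, limma adjusted p = 5.79e-10). Probe set 214400_at read 8.24 and 8.30 in testis, against 2.36 to 2.45 elsewhere, a difference of 5.87 (SE 0.0197, limma adjusted p = 1.87e-09). The third, 1553594_a_at, read 4.98 and 5.36 in testis, against 2.13 to 2.18 elsewhere, a difference of 3.02 (SE 0.0897, limma adjusted p = 4.47e-06). All 3 placed the testis arrays above every other array, with differences of unlike size.

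LHCGR, the Leydig cell receptor for luteinizing hormone, did not rise above the floor. Its human probe set 207240_s_at read 2.40 and 2.41 in testis, against 2.41 to 2.59 on the other 8 arrays, and the testis difference was -0.05 (95% interval -0.11 to 0.01, limma adjusted p = 0.167). No level above the floor was measured for this receptor in any source.

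NR5A1 encodes SF-1, the nuclear receptor that turns on the steroid enzyme genes. The rhesus probe set MmugDNA.16245.1.S1_at read 2.77 and 4.12 in testis, against 2.43 to 2.53 on the other 8 rhesus arrays. Both testis arrays lay above all others but far from each other. The difference of 0.97 (SE 0.305, 95% interval 0.23 to 1.71, limma adjusted p = 0.0322) was under the minimum. It was 1.65 without testis replicate 1 and 0.29 without testis replicate 2. The human probe set 210333_at read 3.42 and 3.27 in testis, against 2.40 to 2.64 elsewhere, and its difference of 0.88 (SE 0.0640, limma adjusted p = 0.000176) was also under the minimum.

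**Figure D2:**
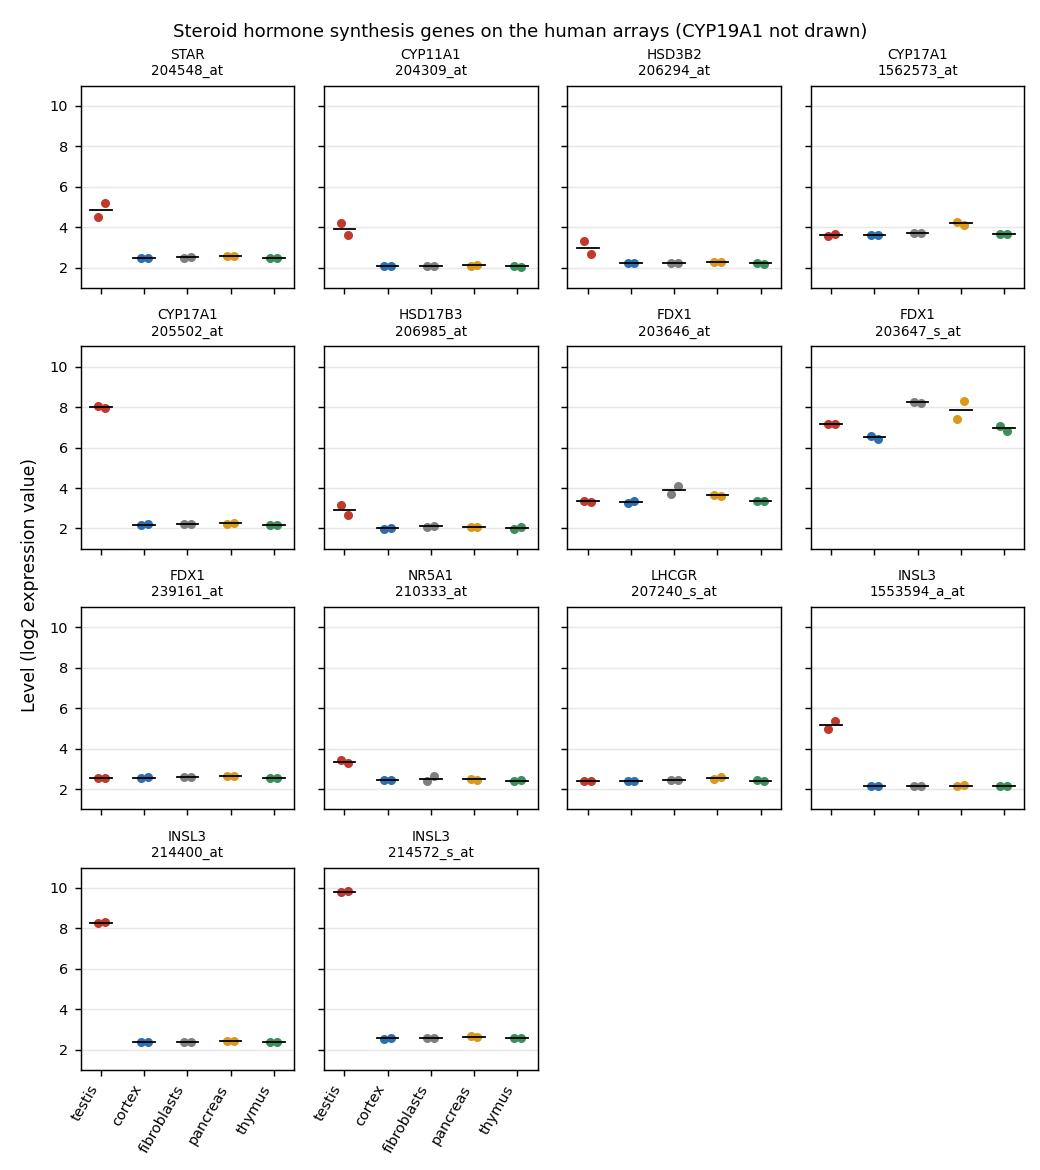
Levels of the human probe sets of 9 member genes on each of the 10 human arrays, CYP19A1 left out. The y axis is the log2 expression value, points are single arrays and bars are the mean of the 2 arrays of a source. CYP17A1 205502_at and INSL3 214400_at and 214572_s_at lie between 7.97 and 9.84 in testis and at 2.66 or below elsewhere, while CYP17A1 1562573_at is level but for pancreas.

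**Figure D3:**
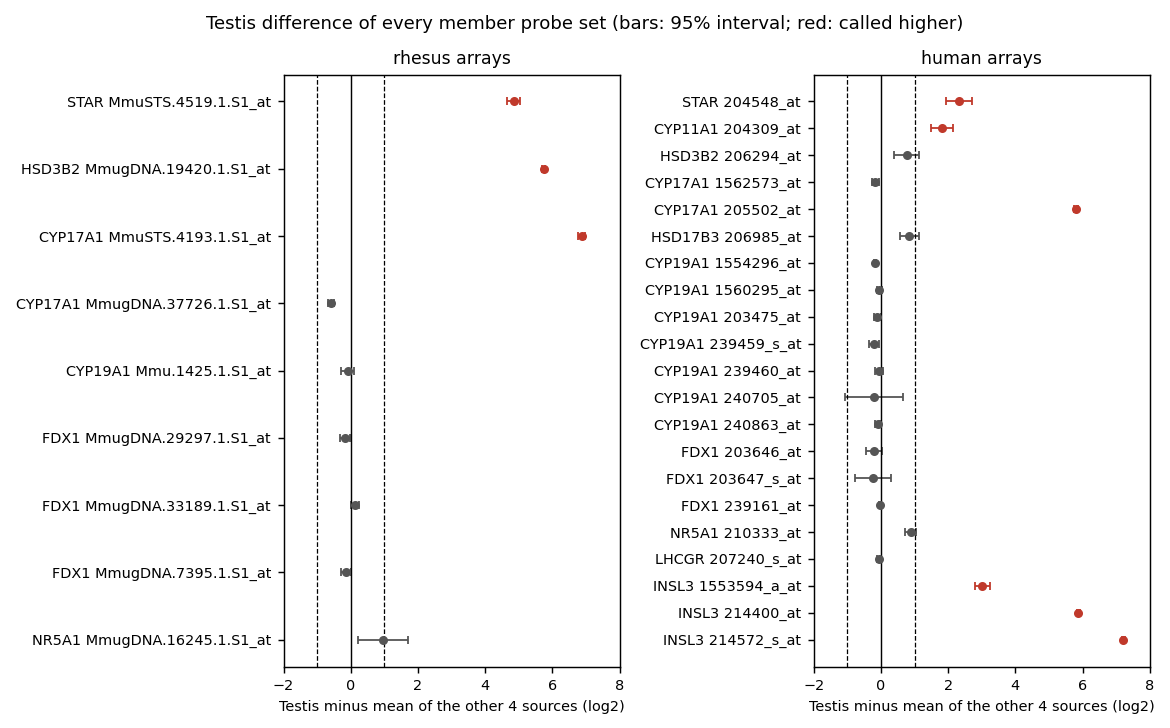
Testis difference of every member probe set, as the log2 level in testis minus the mean of the other 4 sources, with rhesus probe sets in the left panel and human ones in the right. Points are limma estimates, bars are 95% intervals, dashed lines mark a difference of 1 in either direction, and red marks the 3 rhesus and 6 human probe sets called higher.

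For the 9 called probe sets, the order of sources was testis first and pancreas next on each. Testis over pancreas passed in all 9, where 72.2% of all rhesus and 58.8% of all human probe sets passed between these 2 sources in either direction. Below testis, pancreas over fibroblasts passed on rhesus arrays for HSD3B2 (0.29, limma adjusted p = 0.000231) and CYP17A1 (0.23, adjusted p = 0.0141), where 47.5% of all rhesus probe sets passed this pair. The 8 arrays of these sources spread over at most 0.44 on each of the 9, none above the range of the bacterial probe sets. Pancreas arrays also had the highest medians over all probe sets. These were 3.48 to 3.53 on rhesus arrays, against 3.24 to 3.31 for the other sources, and 3.05 on human arrays, against 2.90 to 2.95. The part of this offset in the order of sources was not tested. For NR5A1, testis over its next source passed on human arrays (0.82 over fibroblasts, limma adjusted p = 0.000651, 26.3% of all human probe sets) and not on rhesus arrays (0.92 over pancreas, adjusted p = 0.0695).

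The 2 array types were then compared on the genes that both measure, each gene read from the probe set with the highest mean. The testis difference on rhesus arrays minus that on human arrays was called for 2 of the 5 shared members other than CYP17A1, where 1632 of 11956 shared genes (13.7%) were called in either direction. HSD3B2 differed by 4.98 (5.74 on rhesus and 0.76 on human arrays, SE 0.162, limma adjusted p = 1.89e-10), and STAR differed by 2.52 (4.84 on rhesus and 2.32 on human arrays, SE 0.180, limma adjusted p = 3.15e-07). NR5A1 (0.09), FDX1 (0.37) and CYP19A1 (0.12) were not called. A constant offset between the tables of values cancels in this contrast, and other effects of separate normalization do not.

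CYP17A1 had a difference between array types of 7.05 by that rule (6.88 on rhesus and -0.17 on human arrays, SE 0.0730), again a description. The highest mean on human arrays belonged to 1562573_at, so 205502_at was not read. With the mean of both probe sets on each array type, the testis differences were 3.15 on rhesus and 2.81 on human arrays, which differed by 0.33 (SE 0.0451), under the minimum. With the probe set that reached the highest value on any array, a reading added after the data were seen, they were 6.88 on rhesus and 5.80 on human arrays, which differed by 1.07 (SE 0.0659). HSD3B2 and STAR have 1 probe set on each array type, so their differences did not depend on this choice.

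**Figure D4:**
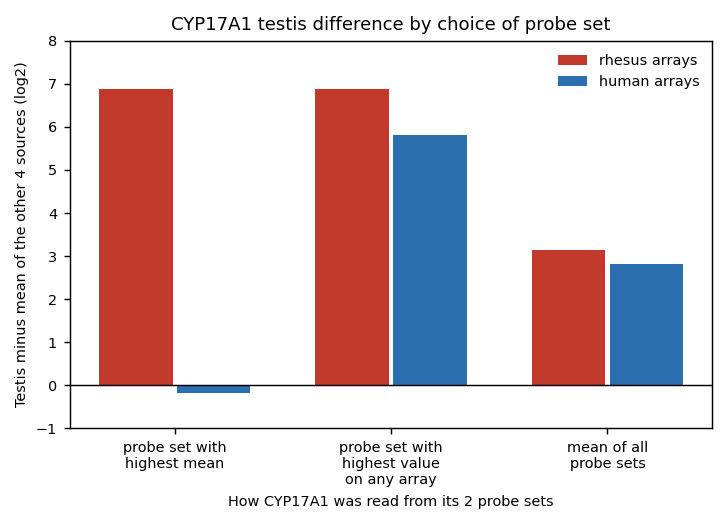
CYP17A1 testis difference (log2 level in testis minus the mean of the other 4 sources) by how the gene was read from its 2 probe sets on each array type, rhesus arrays in red and human arrays in blue. The human value is -0.17 with the probe set of highest mean, 5.80 with the probe set of highest value on any array and 2.81 with the mean of both.

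The counts of other steroid enzymes called in testis lay near or below the shares of all genes. Of 31 listed enzymes and electron carriers, 16 were measured on rhesus arrays, of which 2 were called higher in testis and 1 lower, and 27 on human arrays, of which 0 were called higher (2 at an unadjusted p below 0.05 by limma) and 1 lower. Over all genes, each read from its brightest probe set, 16.1% were called higher and 11.2% lower on rhesus arrays, and 8.67% higher and 5.63% lower on human arrays. The median difference of the list was -0.10 on rhesus and -0.09 on human arrays, against -0.08 and -0.06 over all genes. FDXR, ferredoxin reductase, which hands electrons to the product of FDX1, read 9.97 and 9.84 in testis, against 4.55 to 5.26 on the other 8 rhesus arrays, a difference of 4.97 (SE 0.121, limma adjusted p = 4.72e-07). It was named after its values were seen, as was AKR1D1, a steroid 5-beta-reductase, at 1.95, whose thymus arrays (8.02 and 8.01) lay close to the testis arrays (8.23 and 8.03). HSD11B1, which regenerates active glucocorticoid, and HSD17B6 on human arrays were the 2 called lower. HSD11B1 read 3.51 and 3.16 in testis, against 8.90 and 8.69 in fibroblasts and 2.79 to 3.12 in the other 3 sources, so testis lay below fibroblasts only.

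Some genes of cholesterol synthesis were lower in testis. Of 19 listed genes for cholesterol synthesis, 4 of 13 measured on rhesus arrays were lower (PMVK, MVD, EBP and INSIG1) and 2 of 15 on human arrays (EBP and INSIG1), with none higher by limma, also at an unadjusted p below 0.05. The list's median was -0.72 on rhesus and -0.24 on human arrays, against -0.08 and -0.06 over all genes. Of all genes, 11.2% were called lower on rhesus and 5.63% on human arrays. INSIG1, which holds the sterol sensor in the endoplasmic reticulum, read 8.87 and 9.11 in testis, against 9.28 to 12.1 on the other 8 rhesus arrays, a difference of -2.31 (SE 0.0753, limma adjusted p = 1.55e-06). On human arrays its difference was -2.53 (SE 0.0436, limma adjusted p = 5.46e-07). EBP, a sterol isomerase, differed by -1.80 and -1.52, with cerebral cortex as low as testis on rhesus arrays (7.77 and 7.54 in cortex) and thymus as low on human arrays (6.83 and 6.79 in thymus). Among 13 genes for uptake, storage and movement of cholesterol, TSPO, a mitochondrial membrane protein, was called higher (1.24, with fibroblasts above testis) and STARD4, a sterol carrier, lower (-1.26) of 9 measured on rhesus arrays, and none of 12 was called on human arrays (3 higher and 2 lower at an unadjusted p below 0.05). The medians of this list were 0.21 and 0.01. Of all genes, 16.1% were called higher on rhesus and 8.67% on human arrays.

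Regulators of the steroid genes moved in both directions. Of 20 listed, 5 of 19 measured on rhesus arrays were higher in testis (NR0B1, NR2F1, NR2F2, GATA4 and GATA6) and 3 lower. On human arrays 4 of 16 were higher (NR2F1, GATA4, GATA6 and TCF21) and 4 lower. The medians were 0.23 on rhesus and 0.11 on human arrays. Over all genes, 16.1% were called higher and 11.2% lower on rhesus arrays, and 8.67% higher and 5.63% lower on human arrays. GATA4, a zinc finger factor of the gonadal support cells that was also on the Sertoli list, read 9.45 and 9.56 in testis, against 7.49 and 7.21 in pancreas and 2.51 to 2.61 in the other 3 sources on rhesus arrays. Its difference was 5.76 on rhesus and 2.64 on human arrays (limma adjusted p = 4.37e-08 and 0.000204). GATA6 differed by 4.30 and 4.37, and pancreas, at 9.36 and 9.64 on rhesus arrays, nearly reached its testis levels of 9.76 and 9.69. NR2F1, an orphan nuclear receptor, differed by 1.76 and 1.04, with testis at 9.02 and 9.01 on rhesus arrays, below the 11.2 reached in cerebral cortex.

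NR0B1 encodes DAX-1, a repressor that acts on SF-1, and it read 7.64 and 7.22 in testis, against 4.02 and 5.25 in pancreas and 2.71 to 2.80 in the other 3 sources. Its difference was 4.21 (SE 0.292, limma adjusted p = 4.39e-05) on rhesus arrays, and it was named after its values were seen. NR5A2, the close relative of SF-1, was called lower on both array types (-1.34 and -1.47). It read 2.91 and 3.70 in testis, against 10.4 and 10.4 in pancreas and 2.59 to 2.89 in the other 3 sources on rhesus arrays, so testis lay below pancreas only.

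Among 16 listed receptors for steroids, peptide hormones and growth factors, 2 of 10 measured on rhesus arrays were higher in testis (GHR and IGF1R). On human arrays 5 of 15 were higher (NR3C2, FSHR, GHR, GNRHR and IGF1R). The medians were -0.27 on rhesus and -0.03 on human arrays. No receptor was called lower, while 7 rhesus and 3 human ones were lower at an unadjusted p below 0.05 by limma. Shares of all genes at that p were not counted. Of all genes, 16.1% were called higher and 11.2% lower on rhesus arrays, and 8.67% higher and 5.63% lower on human arrays. The 2 of 10 higher on rhesus arrays thus lay near the share of all genes. These counts read each gene from its brightest probe set, and other probe sets of the listed genes were not counted. For ESR1, an estrogen receptor, the brightest human probe set was not called (-0.07). Another human ESR1 probe set was higher in testis by 3.39 (limma adjusted p = 6.15e-05), so the ESR1 result depended on the probe set. ESR1 was named after its values were seen. IGF1R, the receptor for insulin-like growth factor 1, read 7.96 and 7.75 in testis, against 4.81 to 7.71 on the other 8 rhesus arrays, a difference of 2.17, and it differed by 1.56 on human arrays (limma adjusted p = 3.90e-06 and 1.71e-05). GHR, the growth hormone receptor, differed by 1.11 and 2.58. On human arrays NR3C2 read 7.89 and 8.35 in testis, against 8.39 and 8.33 in cerebral cortex, so testis did not lie above cortex. The NR3C2 levels were added after they were seen. FSHR, the Sertoli cell receptor for follicle-stimulating hormone, was measured on human arrays and read 8.20 and 8.09 in testis, against 2.15 to 2.25 on the other 8 arrays, a difference of 5.96 (SE 0.0331, limma adjusted p = 8.16e-09). It too was named after its values were seen.

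The genes most like each called rhesus member were found over the 5 source means, each centred on the gene's own mean, among 14131 other genes. The nearest to STAR were EMILIN3 (root mean square distance 0.0452), LAMC3 (0.0680) and BNC1 (0.0747). CYP17A1 was nearest to LHX9 (0.0522), PAPPA2 (0.0733) and COL4A6 (0.0885), and HSD3B2 to TSPYL6 (0.0803), LOC700564 (0.108) and KRBOX1 (0.116). With 5 source means, such a match says that a gene is high in testis and at one low level elsewhere.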

How the data were processed

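The authors deposited one table of log2 expression levels per array type, a value for each probe set and array, for 10 rhesus and 10 human arrays. The submitters' processing notes name RMA. Its version is not given in the sources used here, nor which arrays it was run on jointly. The deposited log2 values were used as given. Sources came from the sample labels and gene symbols from the platform annotation (24956 rhesus and 41091 human probe sets with 1 symbol). Of the rhesus probe sets, 24616 matched the RefSeq gene table and no symbol changed.

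Each table was fitted alone with limma 3.58.1 (R 4.3.3), 5 source means without a block, and Benjamini-Hochberg adjustment over all probe sets other than controls. The array types were compared in 1 fit of all 20 arrays over 11956 shared genes. A call needed an adjusted p below 0.05 and a difference of at least 1.

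The members, gene lists and tests were chosen with earlier results of these data known. All members were named with every probe set. Of each pathway list, up to 4 genes called on both array types in one direction were named, and others only as stated. Genes alike were the 3 nearest by root mean square distance.

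The fit was tested on simulated data. The number of arrays limits the precision. Alternatives were other scalings, no minimum difference, dim probe sets left out, ordinary analysis of variance, a replicate block, pancreas left out, each array left out, and other ways to read a gene. Promoter sequences were not used here.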

Additional observations from a re-analysis of the deposited data

Results flagged for a closer look

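The testis differences of HSD3B2 and STAR were larger on rhesus arrays than on human arrays by a limma contrast of the 2 differences, each gene read from the probe set with the highest mean: 4.98 for HSD3B2 and 2.52 for STAR on the log2 scale. The same contrast was 7.05 for CYP17A1, a description, since that gene had been listed with its pattern known. The CYP17A1 value depended on the probe set: with both probe sets averaged it was 0.33, and with the probe set of highest value on any array it was 1.07. HSD3B2 and STAR had 1 probe set of a single gene symbol per array type. On these, both testis arrays of either type lay above every other array of that type. The rhesus probe set shared by HSD3B2 and LOC713156 was left out and had testis lowest, at 2.29 and 2.32. With 2 arrays per source and array type, no array could be tested as an outlier within its group.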

How the results depend on the processing

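The replicate numbers are shared by the labels only: same-numbered arrays of different sources had deviations that correlated between -0.03 and 0.01 on rhesus and between -0.03 and 0.02 on human arrays over 10 pairs of sources each. With the number as a replicate block, 3 rhesus and 6 human members were called higher and 0 lower, as without it. Members called higher numbered 3 to 4 on rhesus and 6 to 8 on human arrays when each array was left out in turn. The fourth was NR5A1 without testis replicate 1 (1.65), and the 2 added on human arrays were HSD3B2 (1.10) and HSD17B3 (1.10) without testis replicate 4. Where a source kept 1 array, that array was taken to vary like the others. With array medians subtracted, NR5A1 reached 1.01. With no minimum difference, 2 rhesus and 4 human members were called lower, where 20417 of all 52766 rhesus and 15236 of all 54613 human probe sets were. The filter on dim probe sets (at least 4 on 2 arrays) kept 6 of 9 rhesus and 7 of 21 human members, and the kept probe sets of STAR, HSD3B2 and INSL3 and those of CYP17A1 that separated testis reached 4 on testis arrays only.

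With a gene's probe sets averaged, the CYP17A1 difference between array types was 0.33, against 7.05. That reading also gave 0 genes of cholesterol uptake higher on rhesus arrays and, on human arrays, 1 of cholesterol synthesis and 0 other enzymes lower. Quantile normalization gave 2 other enzymes lower on human arrays. Without pancreas in the mean there were 1 higher and 2 lower of these, and 1 receptor lower on rhesus arrays. Leaving out pancreas moved the share of higher calls among all calls on human arrays to 51.2%, against 62.8%. The cause of these shifts was not tested. No result changed direction with a call. Of the values, 659 stayed on their side of the threshold or, for counts, within 1.5 times. Among these, a value not called in either setting could change sign. Another 14 came to pass the threshold, 1 no longer passed it, and 9 counts moved by over 1.5 times or to or from 0. The reading by highest value was added after the data were seen.

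Depth in the sense of counts does not apply to arrays. Of the members, 2 of 9 rhesus and 11 of 21 human probe sets never exceeded 4 on any array, so their differences were measured near the floor.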
